A study of Mus musculus with 13 samples.

Results

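The pacemaker channel genes examined here are Hcn2, Hcn3, Hcn4, Cacna1c, Cacna1d, Cacna1g, Cacna1h, Cacna1i and Nalcn, chosen by symbol as channels that drive the tonic firing of medial habenula neurons. All 9 were found among the 22682 gene symbols shared by the 13 libraries of the series, and all 9 passed the filter on low counts in the comparison of genotypes. The study profiled ribosome-bound mRNA of the medial habenula in mice with and without Gpr151, a habenular orphan G protein-coupled receptor. Adult mice older than 8 weeks carried the transgene Chat-TRAP DW167, which places a GFP-tagged ribosomal protein in cells where the Chat regulatory sequence is active, so that anti-GFP beads pull down polysomes from cholinergic cells (translating ribosome affinity purification; IP). There were 6 IP libraries from Chat-TRAP DW167 mice without the knockout (wild type), 6 IP libraries from Gpr151-KO::Chat-TRAP DW167 mice (knockout) and 1 input library of total RNA from the unpurified tissue of Chat-TRAP DW167 mice. All groups therefore carry the transgene. Each library pooled 4 mice, or 3 mice for libraries 852 and 855, so replicates are separate pools. No source used here gives sex or strain background, and no treatment is labelled.

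Cholinergic neurons of the ventral medial habenula fire spontaneously and regularly without synaptic drive. HCN channels open on hyperpolarization and pass an inward cation current, T-type calcium channels open near rest, L-type channels with the Cacna1d subunit open at lower voltages than those with Cacna1c, and the sodium leak channel NALCN holds the membrane depolarized. Each of these genes encodes the pore-forming subunit, and for some of these channels separate accessory subunits set trafficking and gating.

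The coding stretch around the selectivity filter is shown for all 9 genes, because the HCN genes encode other residues there than the calcium and leak channel genes, which encode the same 3 residues in the part marked. Sequences are 5′ to 3′ on the coding strand of GRCm38, from GENCODE M21 transcripts. In the HCN genes the capitals mark the codons for glycine, tyrosine and glycine of the filter. In the calcium and leak channel genes they mark the codon of the filter glutamate in the first of the channel's repeats and the following codons for glycine and tryptophan.
Hcn2: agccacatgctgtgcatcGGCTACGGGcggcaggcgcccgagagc
Hcn3: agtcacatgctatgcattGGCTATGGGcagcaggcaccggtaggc
Hcn4: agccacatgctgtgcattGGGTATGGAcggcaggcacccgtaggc
Cacna1c: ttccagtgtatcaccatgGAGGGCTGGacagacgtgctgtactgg
Cacna1d: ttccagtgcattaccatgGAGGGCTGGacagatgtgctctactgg
Cacna1g: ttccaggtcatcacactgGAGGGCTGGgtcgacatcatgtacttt
Cacna1h: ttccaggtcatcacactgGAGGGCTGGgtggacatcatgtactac
Cacna1i: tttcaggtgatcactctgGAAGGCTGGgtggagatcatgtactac
Nalcn: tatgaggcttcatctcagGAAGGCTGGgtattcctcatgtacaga

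Over these 45 bases Hcn2 shared 37 and Hcn3 39 with Hcn4, Cacna1c shared 41 with Cacna1d, and Cacna1g and Cacna1h shared 37 and 40 with Cacna1i. Nalcn shared only 20 bases with Cacna1d in all, but 8 of the 9 in capitals. The HCN stretches lie within exon 4 of their transcripts, at chr10:79728941-79728985 on the plus strand for Hcn2, chr3:89150988-89151032 on the minus strand for Hcn3 and chr9:58855573-58855617 on the plus strand for Hcn4. Those of the L-type genes lie within exon 7, at chr6:118751369-118751413 for Cacna1c and chr14:30178545-30178589 for Cacna1d, both on the minus strand. That of Nalcn lies within exon 8, at chr14:123515709-123515753 on the minus strand. The T-type stretches each join 2 exons, so that their spans include an intron: chr11:94461947-94462156 for Cacna1g and chr17:25393565-25393734 for Cacna1h on the minus strand, and chr15:80355796-80356167 for Cacna1i on the plus strand. Outside this stretch, annotated exons of 3 of the genes overlap a gene on the opposite strand: Hcn3 and Pklr over 711 bases, Cacna1d and Chdh over 587, and Cacna1h and Tpsg1 over 158. No source used here says if counting took strand into account, so reads in those bases could belong to either gene. The overlapping genes themselves were low in the IP libraries, at 0.0613 to 0.778 CPM (a count scaled to the total of gene counts in its library) for Pklr, 0.197 to 4.57 CPM for Chdh and at most 0.0544 CPM for Tpsg1.

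Counts assigned to genes ran from 28375912 to 64388596 per IP library, and the input held 54701790. A count of 0 allows up to 3 counts, or 0.0466 to 0.106 CPM in the IP libraries, for counting error only. Of the 10 markers of cholinergic medial habenula neurons, 9 reached the level needed for comparison with the input, and all 9 were at least 2-fold higher in every wild-type IP library. The summed level of the 10, which include Gpr151 itself, was 4708 to 6712 CPM in wild-type IP, 3224 to 6671 CPM in knockout IP and 535 CPM in the input. Markers of other cells remained in the IP: the 8 oligodendrocyte markers summed to 132 to 696 CPM in wild type, 175 to 1283 CPM in knockout and 2374 CPM in the input, and the 6 thalamic relay neuron markers to 345 to 1695, 306 to 2327 and 2791 CPM. None of these markers was at 0 in all libraries. Wild-type library 1091 and knockout libraries 1099 and 1102 stood apart, with the highest mean log2 CPM of 27 glial and vascular markers (3.36 to 4.06, against 1.07 to 2.76 in the other 9). Gpr151, the targeted gene, had 358 to 539 CPM in wild type and 105 to 197 CPM in knockout, with no overlap (log2 fold change -1.63; edgeR quasi-likelihood test, adjusted p = 0.00592). Reads of Gpr151 were thus fewer but not at 0 in the 6 knockout libraries. Its adjusted p was 0.0538 without library 683 and 0.424 with the 8 later libraries alone (edgeR).

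Relative to the input, the pacemaker channels did not move as a block. Hcn4 was the 1 gene at least 2-fold above the input in every wild-type IP library, and none was at least 2-fold below it in every one. Over all genes that reached 5 CPM in the input or as the wild-type IP mean, 5.83% met the first criterion and 8.33% the second. By direction alone, Hcn3, Hcn4, Cacna1d and Nalcn lay above the input in all 6 wild-type IP libraries, as did 32.2% of all such genes. Hcn2 and Cacna1g lay below it in all 6, as did 27.6% of such genes. Cacna1c and Cacna1i lay on both sides, and Cacna1h did not reach the level. In knockout IP, none of the 9 was 2-fold above or below the input in all 6 libraries, against 4.19% and 5.2% of all genes. The same 4 genes lay above the input in all 6 knockout libraries and the same 2 below it, as did 25.6% and 23.8% of all genes. The median log2 ratio over the 8 genes with the level was 0.46, against 0.11 for all genes. With a single input library these are differences between libraries without a replicate check on the input, and the labels give no treatment. The names of the deposited tables mention saline for every IP library but 682 and 683, and both saccharin and saline for the input, so differences in fraction and in treatment cannot be told apart. In dissected tissue, fewer cells of a type and less RNA per cell cannot be told apart.

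**Figure D1:**
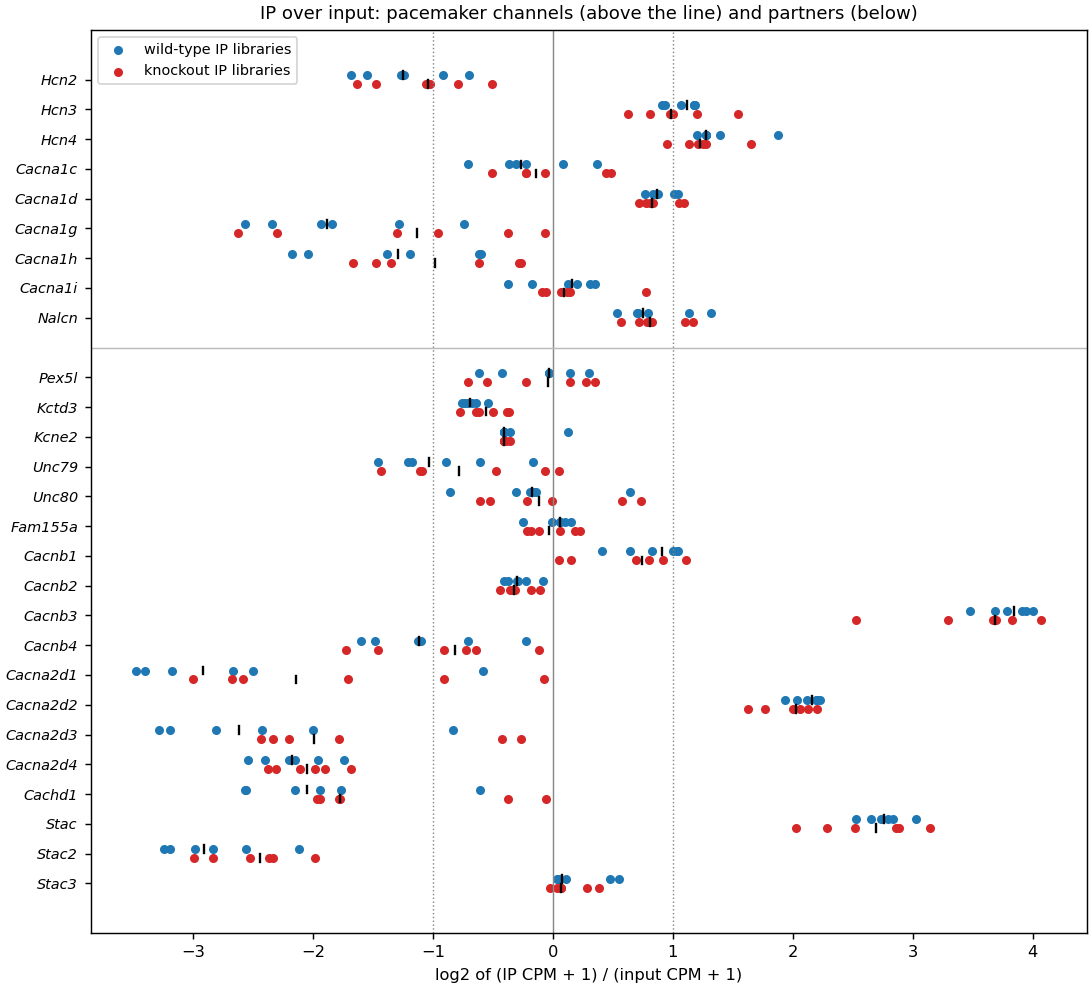
Log2 ratio of each IP library to the single input library, on (CPM + 1), for the 9 channel genes above the line and 18 accessory and partner genes below it. Each point is 1 library, short bars are group medians and dotted lines mark 2-fold. Hcn4 lies to the right of the dotted line in all 6 wild-type libraries, and Cacna1g spreads from -2.57 to -0.74 in wild type.

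Among the HCN genes, Hcn3 and Hcn4 were above the input and Hcn2 was below it. Hcn4, a slowly gating and strongly cAMP-sensitive subunit and the main one of the sinoatrial node, lies at chr9:58823412-58863175 on the plus strand. Its level in wild-type IP was 68.1 CPM at the lowest, 71.7 at the median and 109 at the highest, and in knockout IP 57.0, 69.3 and 93.2 CPM, against 28.9 CPM in the input. All 12 IP libraries were above the input, and the genotypes overlapped. The log2 ratio to input was 1.28 at the median of wild type (1.21 to 1.88) and 1.23 in knockout (0.95 to 1.65), where 5 of 6 libraries reached 2-fold.

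Hcn3, a slowly gating HCN subunit that responds little to cAMP, lies at chr3:89146074-89160196 on the minus strand. Its level was 19.5, 22.7 and 23.8 CPM (lowest, median, highest) in wild-type IP and 15.8, 20.6 and 30.7 CPM in knockout IP, against 9.89 CPM in the input. Every IP library was above the input, and knockout libraries lay both above and below all of the wild-type ones. The log2 ratio to input had a median of 1.12 in wild type (0.91 to 1.18), with 4 of 6 libraries at 2-fold or more, and 0.99 in knockout. In an edgeR fit of the wild-type IP libraries against the input, which takes the spread from the IP libraries as if the single input had the same spread, Hcn3 was higher by 1.12 (adjusted p = 0.0241) and Hcn4 by 1.4 (adjusted p = 0.0206) on the log2 scale. That fit called 7.03% of all genes tested higher and 10.1% lower.

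Hcn2, a cAMP-sensitive subunit that is widespread in brain and abundant in thalamus, lies at chr10:79716634-79736108 on the plus strand. It was at 5.54, 7.82 and 11.9 CPM in wild-type IP (lowest, median, highest) and at 5.78, 9.18 and 13.8 CPM in knockout IP, against 19.98 CPM in the input. No IP library reached the input. The wild-type log2 ratio had a median of -1.25 (-1.68 to -0.70), 4 of 6 libraries were at least 2-fold lower, and edgeR gave -1.31 (adjusted p = 0.0470). In the 4 earlier IP libraries (682, 683, 852 and 855) Hcn2 was at 10.1 to 13.8 CPM. In the 8 later ones (1091 to 1094 and 1099 to 1102) Hcn2 was at 5.54 to 9.30 CPM. The share of all genes separated between these sets in this way was not counted. With the 2 earlier wild-type libraries alone, the median ratio was -0.81.

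Of the L-type genes, Cacna1d was above the input in every IP library and Cacna1c was not. Cacna1d, which encodes the pore of Cav1.3, lies at chr14:30039939-30491455 on the minus strand. Its wild-type IP libraries had 58.0, 62.4 and 70.2 CPM (lowest, median, highest) and its knockout IP libraries 55.9, 60.3 and 72.8 CPM, against 33.6 CPM in the input. All IP libraries were above the input, and the genotypes covered nearly the same range. The wild-type log2 ratio was 0.87 at the median (0.77 to 1.04), 2 of 6 libraries reached 2-fold, and edgeR gave 0.89 (adjusted p = 0.0316). Cacna1d was also the steadiest of the 9 genes, with a coefficient of variation of 9.02% over the 12 IP libraries. The median of all 10277 genes with a mean of at least 5 CPM was 23.0%, with quartiles of 16.9% and 31.2%.

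Cacna1c, which encodes the pore of Cav1.2, lies at chr6:118587240-119196418 on the minus strand and spans 609 kb. It was at 89.2, 122 and 188 CPM in wild-type IP (lowest, median, highest) and at 103, 132 and 204 CPM in knockout IP, against 146 CPM in the input. The input fell inside the range of both genotypes: 2 of 6 wild-type and 2 of 6 knockout libraries were above it. The log2 ratio was -0.26 at the wild-type median (-0.71 to 0.37), and edgeR gave -0.19 (adjusted p = 0.722).

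The T-type genes Cacna1g and Cacna1h varied most between IP libraries of the 9 genes, with coefficients of variation of 64.2% and 66.5%, and Cacna1i had 22.5%. Cacna1g, which encodes Cav3.1, the main T-type channel of thalamic relay neurons, lies at chr11:94408391-94474198 on the minus strand. It was at 13.7, 22.6 and 51.2 CPM in wild-type IP (lowest, median, highest) and at 13.1, 39.1 and 82.3 CPM in knockout IP, against 86.2 CPM in the input. All 12 IP libraries were below the input, the highest in knockout only just, and the genotypes overlapped. The wild-type log2 ratio had a median of -1.89 (-2.57 to -0.74), with 5 of 6 libraries at least 2-fold lower, and edgeR gave -1.73 (adjusted p = 0.0479). The exception was library 1091, and without it Cacna1g was at least 2-fold lower in each of the 5 that remained.

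Cacna1i, which encodes Cav3.3, the slowest of the T-type channels, lies at chr15:80287238-80398279 on the plus strand. Its wild-type IP libraries had 16.9, 24.95 and 28.5 CPM (lowest, median, highest) and its knockout IP libraries 20.7, 23.7 and 38.7 CPM, against 22.2 CPM in the input. The input lay among the IP values of both genotypes. The wild-type log2 ratio was 0.16 at the median (-0.37 to 0.35; edgeR 0.07, adjusted p = 0.909).

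Cacna1h, which encodes Cav3.2, lies at chr17:25374285-25433783 on the minus strand and was the lowest of the 9 genes. Its wild-type IP libraries had 0.282, 1.38 and 2.82 CPM (lowest, median, highest) and its knockout IP libraries 0.828, 2.02 and 3.83 CPM, against 4.79 CPM in the input. Counts ran from 8 to 211 per IP library, above the limit of 3 counts in each. Every IP library was below the input, but edgeR gave -1.70 with an adjusted p = 0.238.

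Nalcn, the sodium leak channel, lies at chr14:123276634-123627144 on the minus strand. Wild-type IP libraries had 121, 141 and 210 CPM (lowest, median, highest) and knockout IP libraries 124, 147 and 189 CPM, against 83.5 CPM in the input. All 12 IP libraries were above the input, with the knockout values inside the wild-type range. The log2 ratio was 0.75 at the wild-type median (0.53 to 1.32) and 0.81 in knockout. Of the 6 libraries of each genotype, 2 reached 2-fold. The edgeR value of 0.86 did not pass (adjusted p = 0.0991).

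**Figure D2:**
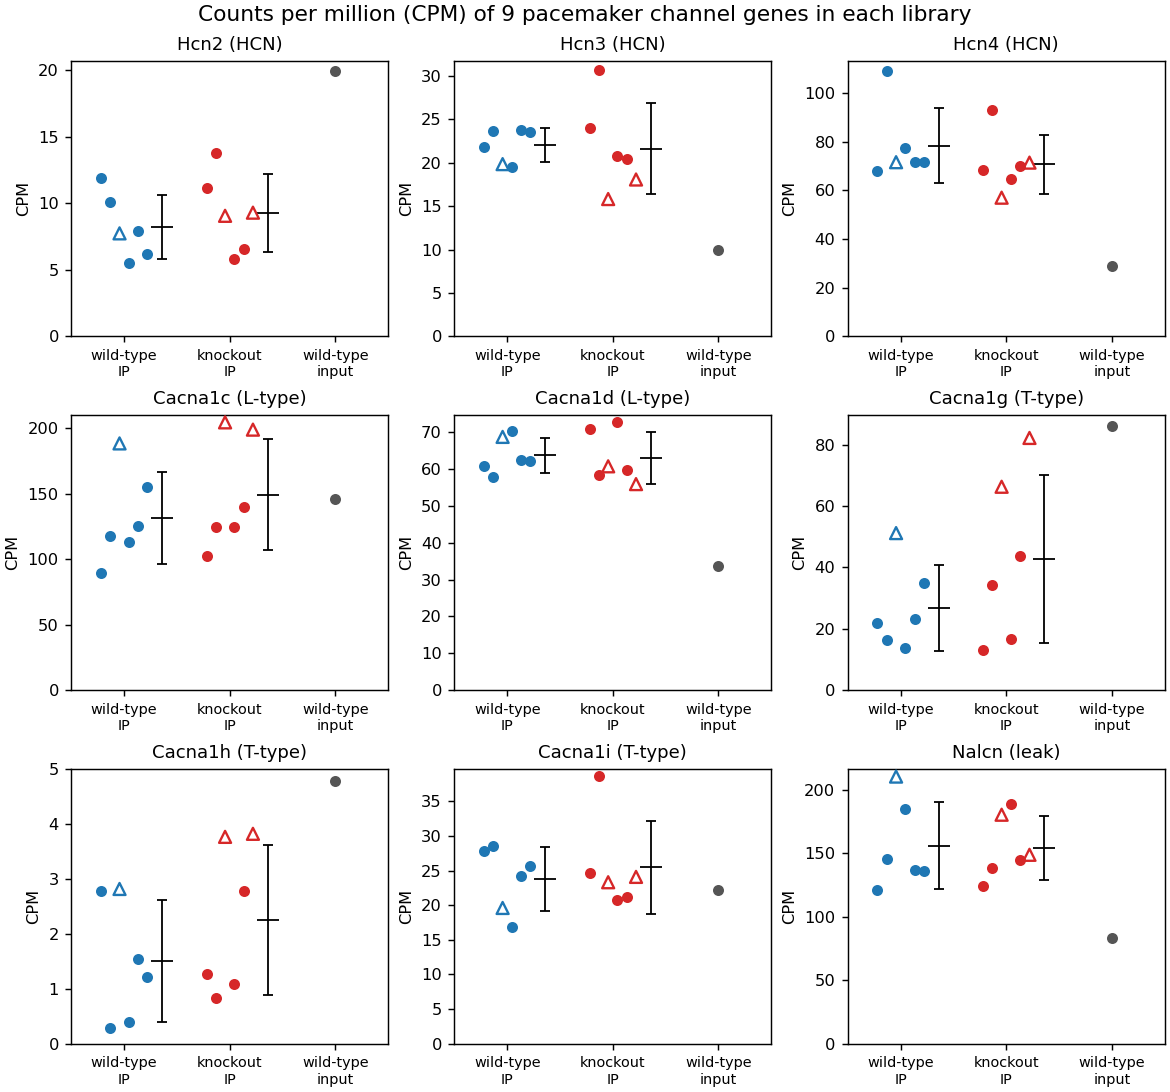
CPM of each of the 9 genes in every library, on linear axes that start at 0. Points are libraries, horizontal bars with whiskers are the mean and SD of 6 libraries, and open triangles mark libraries 1091, 1099 and 1102. The triangles are the highest IP values for Cacna1c, Cacna1g and Cacna1h, while Hcn3, Hcn4, Cacna1d and Nalcn have every IP library above the input.

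Compared per length, Nalcn was the most abundant of the 9 transcripts on the ribosomes of wild-type IP. Its mean level was 21.9 ± 4.80 CPM per kb of annotated exon (SD, n = 6), and it exceeded Hcn4, at 12.8 ± 2.52, in each of the 6 libraries although the ranges overlapped. Cacna1c followed with 8.64 ± 2.3, Cacna1d with 7.10 ± 0.528 and Hcn3 with 5.5 ± 0.491 CPM per kb. The ranges of Hcn4 and Cacna1c and of Cacna1c and Cacna1d overlapped, while Cacna1d was above Hcn3 in every library without overlap. Cacna1g (3.16 ± 1.65 CPM per kb) overlapped Hcn3 above it and Hcn2 (2.58 ± 0.753) below it, and Hcn2 overlapped Cacna1i (2.43 ± 0.472). Cacna1h, at 0.183 ± 0.135 CPM per kb, lay below Cacna1i in every library without overlap. Coding length in place of exon length was an alternative chosen after seeing the data. With it, Cacna1i moved above Hcn2 and the order of means was otherwise kept in wild-type IP. The wild-type ranges of Cacna1d (8.92 to 10.8 CPM per kb of coding length) and Hcn3 (8.33 to 10.2) then overlapped. The order within single libraries was compared per kb of exon only. In knockout IP Cacna1c (22.7 CPM per kb of coding length) also moved above Hcn4 (19.6). In the input Cacna1c (22.2) moved above Nalcn (16.003), and Hcn4 (8.03) moved above Hcn2 (7.72).

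The order was different in the input. Nalcn (11.7 CPM per kb of exon) was followed there by Cacna1g (10.1), Cacna1c (9.59), Hcn2 (6.25) and then Hcn4 (4.73). The order of Hcn2 and Hcn4 in the input was reversed with coding length, and shares were taken per kb of exon only. Per kb of exon, Hcn4 made up 61.1% ± 4.45 of the summed level of Hcn2, Hcn3 and Hcn4 in wild-type IP, 58.5% ± 3.02 in knockout IP (SD, n = 6 each) and 35.2% in the input. Hcn2 made up 12.3% ± 3.28, 14.5% ± 3.09 and 46.5%. No IP library of either genotype reached the input for the share of Hcn2, and none was as low as the input for that of Hcn4.

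Within the L-type pair, Cacna1d held 45.8% ± 5.96 of the level per kb in wild-type IP, 42.6% ± 8.63 in knockout IP and 28.1% in the input. All 12 IP libraries were above the input, the lowest at 32.3%. Cacna1g held 52.3% ± 11.8 of the T-type level in wild-type IP, 58.4% ± 16.3 in knockout IP and 78.1% in the input, and Cacna1i 44.7% ± 12.4, 38.2% ± 16.9 and 17.5%. Every IP library had a lower share of Cacna1g and a higher share of Cacna1i than the input. In CPM, Cacna1i itself lay near the input and Cacna1g below it.

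**Figure D3:**
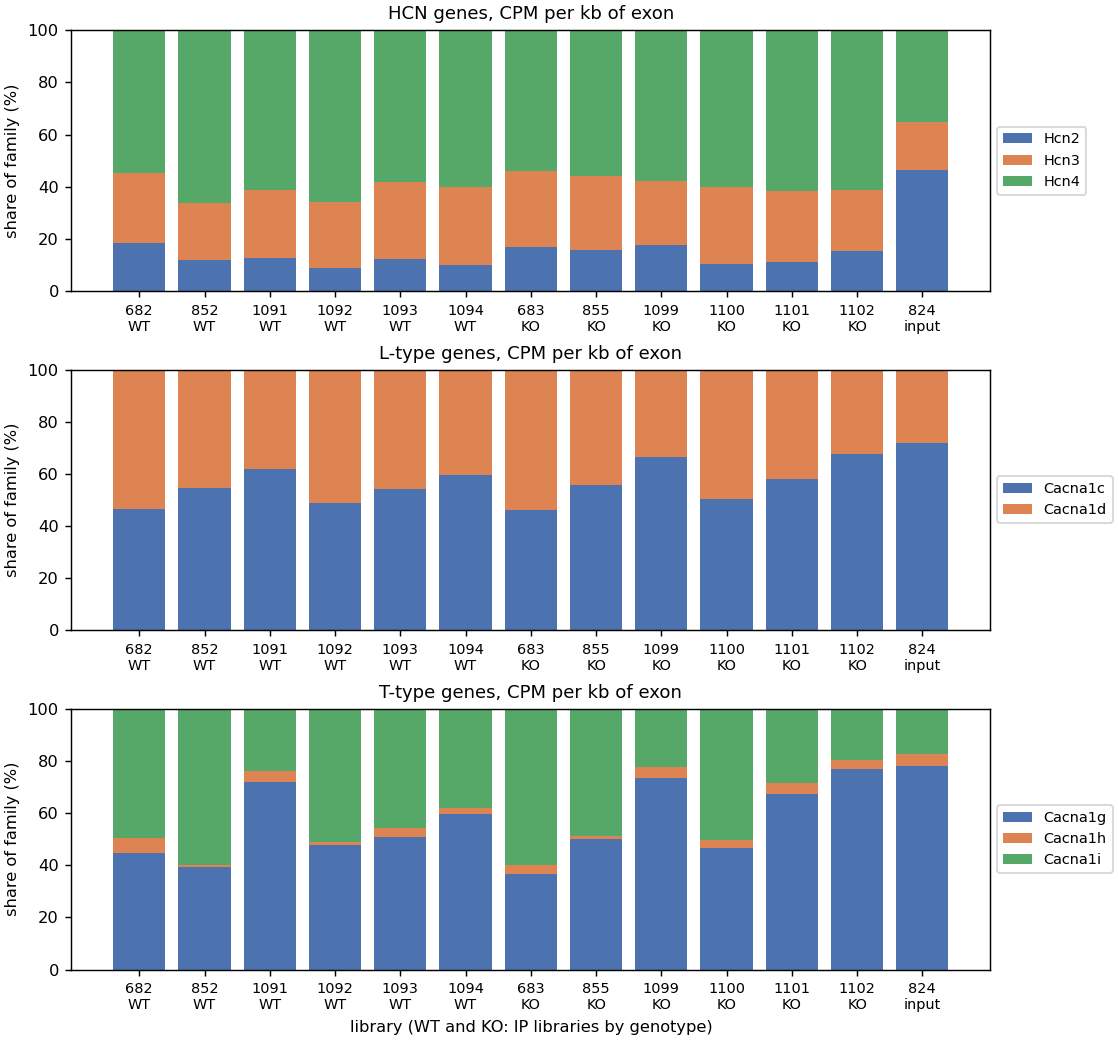
Share of each gene in the summed CPM per kb of exon of its family, in percent, for every IP library and the input. Hcn4 takes 54.1% to 66.3% of the HCN level in the IP libraries and 35.2% in the input, and Cacna1g takes 36.6% to 76.8% of the T-type level in the IP libraries and 78.1% in the input.

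Cacna1c, Cacna1g and, by a narrow margin, Cacna1h were highest in the IP libraries with the highest mean log2 CPM of glial and vascular markers. In libraries 1091, 1099 and 1102, which had been singled out by their glial and vascular markers, Cacna1g was at 51.2 to 82.3 CPM, against 13.1 to 43.8 CPM in the other 9. Cacna1c was at 188 to 204 CPM against 89.2 to 155 CPM, and Cacna1h at 2.82 to 3.83 against 0.282 to 2.78 CPM. These 3 genes thus lay higher in each of the 3 libraries than in any other, as did 16.8% of the 10277 genes with a mean of at least 5 CPM. Cacna1h is not among those genes, as its mean was below 5 CPM. Its margin was 2.82 CPM in library 1091 against 2.78 CPM in library 682. In library 682 the mean log2 CPM of the glial and vascular markers was 1.51. Of the marker lists in that mean, the astrocyte, oligodendrocyte and microglia sums were higher in each of the 3 libraries than in any other. The endothelial and mural sum overlapped (29.1 to 53.2 CPM against 4.58 to 36.1). Of marker lists with no part in singling out the 3 libraries, the thalamic sum was also higher in each of them (1695 to 2327 CPM against 306 to 1019). So was the lateral habenula sum (191 to 306 CPM against 62.7 to 120). The GABAergic sum overlapped (151 to 304 CPM against 14.0 to 161), as did the ependymal and choroid plexus sum (6.62 to 29.0 CPM against 2.505 to 7.64). The cholinergic habenula sum was lower in these 3 (3224 to 4708 CPM against 4862 to 6712). That sum includes Gpr151, at 105 to 197 CPM in knockout and 358 to 539 CPM in wild type, and libraries 1099 and 1102 are knockout. The other 6 channel genes overlapped between the 3 libraries and the rest. Hcn3 lay mostly lower in the 3, at 15.8 to 19.8 CPM against 19.5 to 30.7 CPM. The part of other cells in these levels was not tested.

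**Figure D4:**
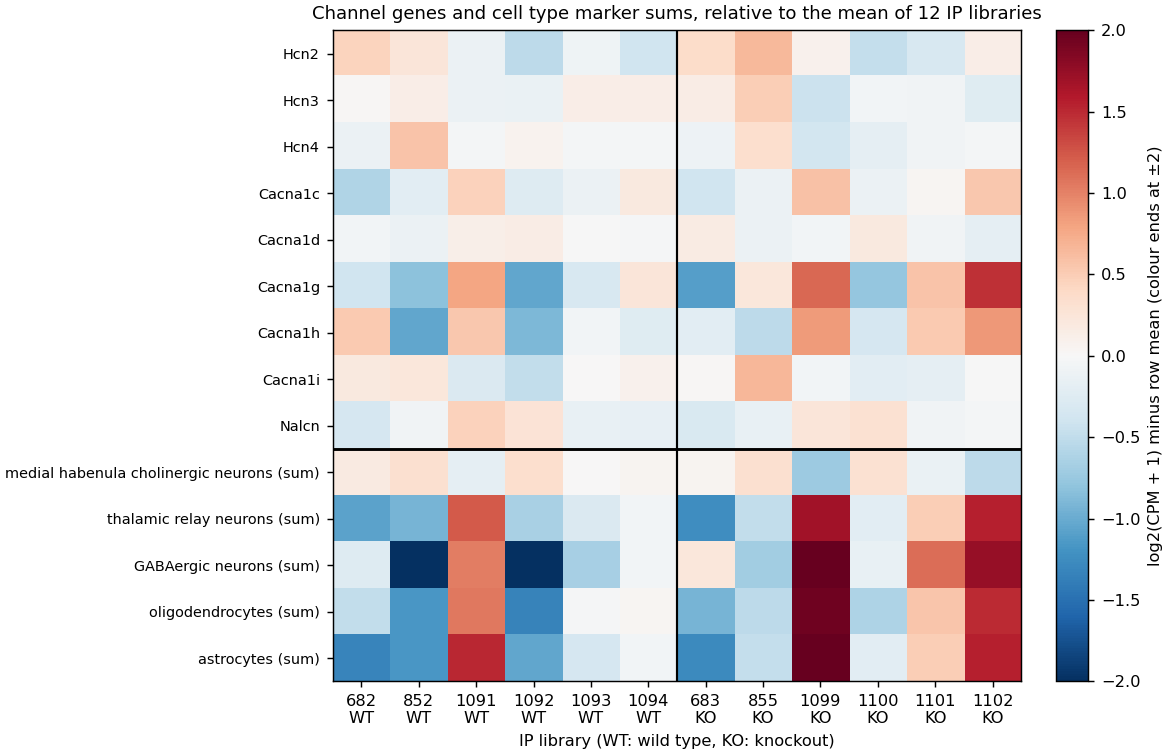
Log2(CPM + 1) of the 9 channel genes and of 5 summed marker lists in each IP library, minus the mean of the row over the 12 IP libraries, with the colour scale ending at 2 in either direction. Cacna1g and the sums for thalamic neurons, oligodendrocytes and astrocytes are darkest red in libraries 1091, 1099 and 1102, while the rows of Hcn4 and Cacna1d stay pale in most libraries.

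None of the 9 genes passed the test for a difference between knockout and wild type. By edgeR, with the set of library numbers as a term, 0 of 9 had an adjusted p below 0.05 and 0 of 9 an unadjusted p below 0.05. Over all 14317 genes tested, 2 were called, or 0.014%, and 3.06% had an unadjusted p below 0.05. DESeq2 called 0 of the 9 and 12 genes, or 0.0838%, in all. The CPM ranges of the genotypes overlapped for each of the 9 genes, and were separate for 0.154% of all genes. The log2 fold changes of 7 genes were above 0 and of 2 below, with a median of 0.10 (all genes 0.0018).

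The intervals show what size of difference these libraries leave possible. For Cacna1d the log2 fold change was 0.0032 ± 0.099 (SE; 95% interval -0.21 to 0.22), for Nalcn 0.0058 ± 0.13 (-0.28 to 0.30), for Hcn3 -0.033 ± 0.12 (-0.30 to 0.24) and for Hcn4 -0.12 ± 0.094 (-0.32 to 0.086). Cacna1i had 0.10 ± 0.13 (-0.19 to 0.39), Hcn2 0.20 ± 0.17 (-0.18 to 0.57) and Cacna1c 0.21 ± 0.17 (-0.15 to 0.57). For none of these 7 did the interval reach a 2-fold change in either direction. It did so for Cacna1g, at 0.62 ± 0.41 (-0.28 to 1.52), and Cacna1h, at 0.73 ± 0.51 (-0.38 to 1.84). The adjusted p of each gene was 0.999 by edgeR's quasi-likelihood test.

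The values for Cacna1g, Cacna1h, Cacna1c and Hcn2 were closer to 0 once the libraries that stood apart were left out. Without 1091, 1099 and 1102 they were 0.27, 0.55, 0.067 and 0.029 on the log2 scale, and with the score of the 27 glial and vascular markers as a covariate -0.062, 0.10, -0.016 and -0.013. The intervals of the fits with the score were narrower for Cacna1g (-0.46 to 0.34) and Cacna1h (-0.53 to 0.74). Within library sets, Cacna1g had 0.80 ± 0.50 (SE) in the 8 later libraries and 0.16 ± 0.38 in the 4 earlier ones, and Cacna1h 0.97 ± 0.57 and 0.063 ± 0.88. The earlier libraries are a pair of sets of opposite sign for both genes. The difference of log2(CPM + 1) was -0.70 for Cacna1g and -0.74 for Cacna1h between libraries 683 and 682, and 1.04 and 0.51 between 855 and 852. For Cacna1h the added 1 CPM is large beside its levels, so its differences are made smaller by it. Its levels were 2.78 CPM in 682, 1.27 in 683, 0.282 in 852 and 0.828 in 855. Hcn3 had -0.19 ± 0.15 in the later and 0.25 ± 0.19 in the earlier libraries. Hcn4 had -0.14 and -0.12, Hcn2 0.19 and 0.17, Cacna1c 0.23 and 0.14, Cacna1d -0.063 and 0.11, Cacna1i 0.075 and 0.13, and Nalcn 0.0065 and -0.027. The difference between earlier and later libraries passed for 0 of the 9 genes and for 0% of all genes by edgeR (interaction term). At an unadjusted p below 0.05 it was 0 of the 9 genes, against 325 of 14317 genes in all. For the same term DESeq2, chosen after seeing the data, called 2 genes and none of the 9.

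**Figure D5:**
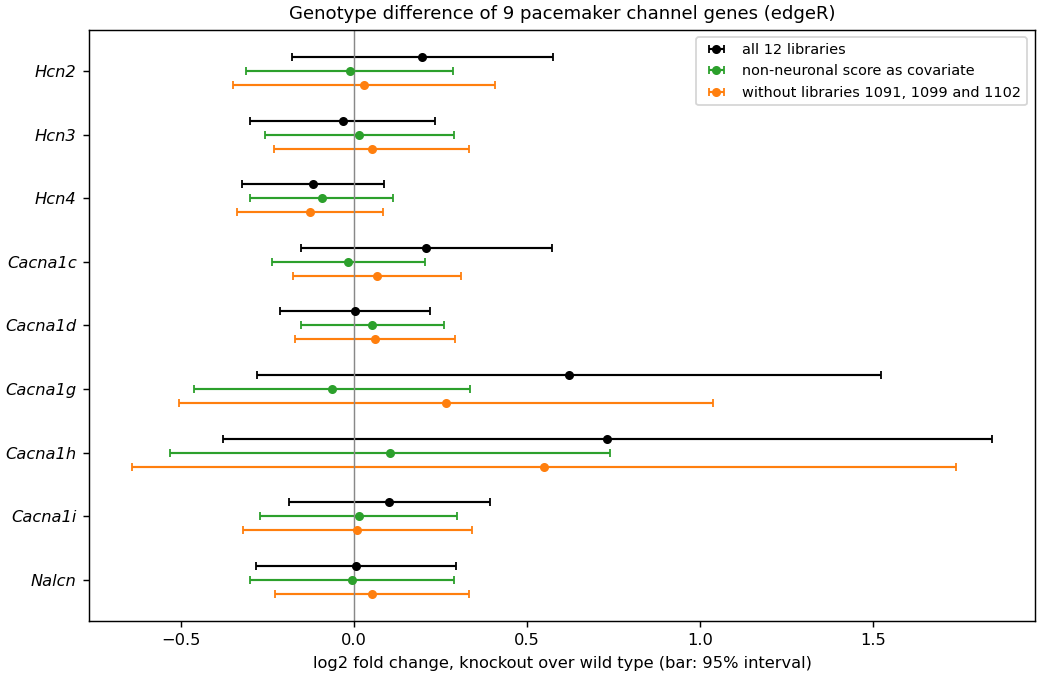
Log2 fold change of knockout over wild type for each gene with its 95% interval, by edgeR with all 12 IP libraries, with the glial and vascular score as a covariate, and without libraries 1091, 1099 and 1102. Each interval includes 0, and the points of Cacna1g and Cacna1h move toward 0 in the other 2 fits.

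Accessory subunits and partners of these channels, were a list of 19 genes. Fam155b was not used here, and the other 18 had median log2 ratios to input from -2.92 to 3.85 in wild-type IP, against -1.89 to 1.28 for the 8 pore genes with the level needed. Of 16 partners with the level needed, 3 were at least 2-fold above the input (5.83% of all genes), and 2 at least 2-fold below it (8.33% of all genes), throughout wild-type IP, with a median log2 ratio of -0.49. Cacnb3, a beta subunit that carries calcium channels to the membrane, stood at a median of 3.85 (3.48 to 4.00), and its level was 1508 to 2164 CPM in wild-type IP, 779 to 2272 in knockout IP and 134 CPM in the input. Cacna2d2, an alpha-2-delta subunit, stood at 2.16 (1.94 to 2.23), and Stac, an adaptor that binds L-type channels, at 2.76 (2.53 to 3.03).

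The 2 partners called lower were Cacna2d4, another alpha-2-delta subunit, at a median of -2.17 (-2.54 to -1.74), and Stac2, a relative of Stac, at -2.91 (-3.24 to -2.11). Cacna2d1 had -2.92 and Cacna2d3 -2.62 at the median, but both reached values above -1 in library 1091 and so were not called. Thus among the alpha-2-delta genes Cacna2d2 alone was above the input, and among the beta subunits Cacnb3 was highest and Cacnb4 lowest (-1.11). The same 3 genes were at least 2-fold above the input in every knockout IP library (4.19% of all genes) and the same 2 at least 2-fold below it (5.2% of all genes).

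In the NALCN complex, no gene met the 2-fold criterion in either direction. Nalcn was above the input in all 12 IP libraries. Unc79, which with Unc80 forms the large accessory part of the complex, had a median log2 ratio of -1.03 in wild-type IP (-1.46 to -0.16; edgeR adjusted p = 0.135) and was above the input in 1 of 6 knockout libraries. Unc80 (-0.17) and the auxiliary subunit gene Fam155a (0.06) had IP libraries on both sides of the input. The difference between Nalcn and its partners was not tested. Unc79 and Unc80 were also higher in each of libraries 1091, 1099 and 1102 than in any other IP library, at 93.0 to 108 CPM against 37.4 to 74.7 for Unc79. Among the partners, so were Pex5l, Cacnb4, Cacna2d1, Cacna2d3, Cachd1 and Stac2, the last with a mean below 5 CPM. Cacnb3 and Cacna2d2 were lower in each of these libraries, and the other partners overlapped. Of all genes with a mean of at least 5 CPM, 16.8% were higher and 16.3% lower in this way. For the HCN channels, Pex5l, which encodes the trafficking subunit TRIP8b, had a median of -0.03 and Kctd3, a binding partner of Hcn3, -0.69. By genotype 0 of the 16 partners tested passed, against 0.014% of all genes, with log2 fold changes from -0.23 for Cacnb3 to 0.97 for Cacna2d3 (edgeR adjusted p = 0.999 each). In libraries 1091, 1099 and 1102 Cacna2d3 was at 19.7 to 29.7 CPM, against 2.78 to 9.74 in the other 9, and Cacnb3 at 779 to 1508 against 1720 to 2272. By DESeq2, Cacna2d3 had an unadjusted p = 0.0227 (adjusted p = 0.981), and 653 of 14317 genes had an unadjusted p below 0.05.

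The genes most alike in profile were found by the root mean square difference of log2(CPM + 1), each centred on its own mean, over the 12 IP libraries and the input. The closest of 10207 candidates was Pcca for Cacna1d (0.0807), Camsap2 for Nalcn (0.0991), Pom121 for Hcn3 (0.0999), Arhgap32 for Cacna1c (0.104) and Syvn1 for Cacna1i (0.118). Larger distances were found for Sorcs2 with Hcn4 (0.148), Zbtb7b with Hcn2 (0.172), Slc43a2 with Cacna1g (0.228) and Prmt8 with Cacna1h (0.283). The second in rank was Scn3b, a sodium channel beta subunit, for Cacna1d (0.0830), Lrrc8a, a subunit of volume-regulated anion channels, for Hcn3 (0.108) and Grik3, a kainate receptor subunit, for Cacna1c (0.111). It was Zc3h6 for Nalcn (0.115), Dagla for Cacna1i (0.128), Coro2b for Hcn4 (0.159), Ywhah for Hcn2 (0.179), Dusp1 for Cacna1g (0.236) and Fras1 for Cacna1h (0.285). These distances describe 13 libraries and carry no test.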

How the data were processed

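Each library had 1 deposited table of raw counts by gene symbol. The submitters' processing notes name STAR 2.3.0e, HTSeq, DESeq2 and the build mm10; no source used here gives their settings or the gene annotation. Amplification used an Ovation V2 kit, per the labels' protocols. Summary lines and unnamed rows were left out. CPM used the total of named genes. The tables list different symbols: 23857 were shared by the 12 IP libraries and 22682 by all 13. Rn45s took 2.25% to 12.6% of IP counts and was not listed for the input.

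Genotypes were compared with edgeR 4.0.16 (R 4.3.3): TMM, filterByExpr (minimum count 10, total 15), library set as covariate (682 and 683; 852 and 855; the 8 later), robust quasi-likelihood test, two-sided, Benjamini-Hochberg over all 14317 genes, threshold 0.05; DESeq2 1.42.0 was an alternative. Tested on simulated data (14159 genes), this fit recovered 62.2% of 98 2-fold and 90.7% of 97 4-fold changes with 3 false calls. The simulated counts had no difference between library sets and no shift shared by many genes in single libraries. These rates therefore need not hold for the data themselves. IP and input were compared by a rule of size (2 times in each of 6 libraries, pseudocount of 1 CPM, minimum of 5 CPM). Positions and lengths came from GENCODE M21 on GRCm38. Chi-square per degree of freedom between replicates was 22.3 to 797 over 30 pairs, so none was counted as a duplicate.

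The 9 genes, the partner list and the marker lists were chosen with earlier results of these data known. Named were the 9 genes, those partners that met a criterion or were highest or lowest in their group (others after their values were seen), Gpr151, and the 2 most alike genes per channel.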

Additional observations from a re-analysis of the deposited data

Results flagged for a closer look

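In 2 of the 18 groups of 6 libraries (9 genes by 2 genotypes), 1 library lay far from the other 5; by chance about 1 group in 20 does so. Hcn4 was at 109 CPM in wild-type library 852, and the other 5 wild-type libraries were at 68.1 to 77.6 CPM. Cacna1i was at 38.7 CPM in knockout library 855, and the other 5 knockout libraries were at 20.7 to 24.7 CPM. Both libraries pooled 3 mice and belong to the same set of library numbers. The part of pool size or library set in these values was not tested. Without library 852, Hcn4 was still at least 2-fold above the input in each wild-type library.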

How the results depend on the processing

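The 9 genes had no call by genotype in any of the 24 fits, where the lowest unadjusted p was 0.0515 and the lowest adjusted p 0.730. Signs turned in some, mostly for genes near 0, and with the glial and vascular score also for Cacna1g, Cacna1c and Hcn2. Cacna1d was at -0.016 with library totals alone, -0.018 without a filter on low counts, -0.063 with later libraries alone and -0.0056 without Rn45s and mitochondrial genes. Nalcn was at -0.015 with library totals alone, -0.015 without a filter, -0.027 with earlier libraries alone, -0.0053 with the glial and vascular score and -0.0034 without Rn45s and mitochondrial genes. Hcn3 was at 0.25 with earlier libraries alone, 0.051 without libraries 1091, 1099 and 1102 and 0.015 with the score, which also gave Hcn2 -0.013, Cacna1c -0.016 and Cacna1g -0.062. Leaving out 1 library at a time gave -0.047 to 0.036 for Cacna1d, -0.064 to 0.081 for Nalcn and -0.12 to 0.012 for Hcn3. It gave 0.40 (without library 1102) to 0.86 (without 683) for Cacna1g, 0.47 (without 1092) to 1.07 (without 682) for Cacna1h, 0.11 (without 1099) to 0.30 (without 1091) for Cacna1c, 0.12 (without 1099) to 0.27 (without 1100) for Hcn2 and 0.025 (without 855) to 0.15 (without 1094) for Cacna1i. Gpr151 had an adjusted p = 0.424 by edgeR with later libraries alone.

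The number of the 9 genes called above the input was 1 in the main comparison (5.83% of all genes). It was 3 with a fold of 1.5 (11.8% of all genes) and 3 by edgeR (7.03%), with Hcn3, Hcn4 and Cacna1d each time. With earlier libraries alone it was 2 (Hcn3 and Hcn4, 10.4% of all genes), and with knockout IP 0 (4.19%). It was 1 whichever wild-type library was left out (5.85% to 7.23% of all genes). The number called below was 0 in the main comparison (8.33% of all genes). It was 2 with a fold of 1.5 (13.4% of all genes) and 2 by edgeR (10.1%), with Hcn2 and Cacna1g each time. It was 1 with later libraries alone (Hcn2, 9.32% of all genes) and 1 with earlier libraries alone (Cacna1g, 15.9%). With 1 library left out it was 1 without library 1091 (Cacna1g, 12.4% of all genes) and 0 otherwise (8.39% to 8.61%). Leaving Rn45s out of library sizes raised the median log2 ratio of all genes to input by 0.118, that of Hcn3 to 1.27 and that of Cacna1d to 1.01. Rn45s is part of the IP totals (2.25% to 12.6%) but not of the input total. Leaving it out thus makes the IP totals smaller and IP CPM higher. The causes of the other differences between settings were not tested. The library set was a term of the main fit; without it no sign turned and 0 of the 9 were called. The labels give no replicate numbers that pair single samples. Direction by library (above or below the input in all 6) was chosen after seeing the data. At this depth Cacna1h, with 8 to 211 counts per IP library, is the least precise of the 9.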

Other observations

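Of the 5 other calcium channel alpha-1 genes, Cacna1e, which encodes the R-type channel Cav2.3, was at least 2-fold above the input in every IP library of both genotypes, with a median log2 ratio of 2.28 (1.79 to 2.59) in wild type. At 65.1 ± 11.9 CPM per kb of exon in wild-type IP (SD, n = 6), it lay above each of the 9 pacemaker genes. Cacna1a, which encodes the P/Q-type channel, and Cacna1b, which encodes the N-type channel, had median ratios of -1.84 and -2.41. By genotype 0 of these 5 passed by edgeR, and 0 had an unadjusted p below 0.05, against 3.06% of all genes. By DESeq2, Cacna1a had an unadjusted p = 0.0433 (log2 fold change 0.83, adjusted p = 0.999), and 653 of 14317 genes had an unadjusted p below 0.05.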
